A study of Danio rerio with 2 samples.

Results

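The aryl hydrocarbon receptor genes of zebrafish were followed in embryos exposed to the triazole fungicide cyproconazole. With them were followed a partner gene and genes that feed back on the receptor or are induced by it. They were chosen by name, as the receptors ahr1a, ahr1b and ahr2, the partner arnt2, the repressors ahrra and ahrrb, and the induced genes tiparp and foxq1a. The figures call this set the receptor and feedback genes. Of these 8 names, 7 are symbols among the 23809 genes of the deposited table. The name ahrra is not in its symbol column, and the row was found by its gene ID. Of the 7 genes, 5 had at least 50 reads over both libraries, the minimum for a comparison, and ahr1a and ahrrb did not.

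The cyproconazole library was made from 40 pooled whole embryos kept in 20 µM of the fungicide from 4 hours to 3 days post fertilization. The control library came from 40 pooled untreated embryos of the same age. Both pools had the genotype given as SAGFF(LF)53A mitfab692/+, so both carry the same trap line and are heterozygous for a mutant allele of mitfa, the pigment-cell regulator. With 1 library per group no difference has a replicate check, no test of the treatment was possible, and every ratio below compares these 2 libraries. Whole reads recovered from the table summed to 20726375 in genes for the cyproconazole library and 18067935 for the control library. Each read ratio is cyproconazole over control after scaling, with an exact (Clopper-Pearson) 95% interval for counting error alone. Reads were not tagged per molecule in any way the labels state, so the true error may be wider.

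The aryl hydrocarbon receptor is a ligand-activated transcription factor of the bHLH-PAS family. It waits in the cytoplasm with Hsp90 and co-chaperones, binds planar aromatic compounds such as dioxins, enters the nucleus and pairs with Arnt proteins to switch on genes that include cytochromes P450 of family 1. Induced repressors, Ahrr and Tiparp, then dampen the receptor. In zebrafish ahr2 is the receptor that mediates most dioxin toxicity to the embryo, including that to the heart and jaw.

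All 19 tissue markers looked up were detected, those of nervous system, liver, endothelium, cartilage, red cells, muscle, heart, skin and pigment cells alike, as the whole-embryo label has it. Their read ratios ranged from 0.195 for the cartilage gene matn1 to 3.77 for the embryonic globin hbbe3. By reads, matn1 and col2a1a were 1.5-fold or more lower, and hbbe3 and the heart gene nppa as far higher. Of all genes compared, 3.13% were as far lower and 2.86% as far higher. For hbbe3 there were 130 reads in the cyproconazole library and 30 in the control library (2.52 to 5.81). The other red-cell gene, alas2, fell just short at 1.498 (1.40 to 1.61). The other heart gene, myl7, went the other way at 0.844 (0.733 to 0.971). The libraries therefore differ in some tissue markers, and not always alike within a tissue. In whole embryos fewer cells of a type and less RNA per cell cannot be told apart. The part of such tissue differences in the values below was not tested.

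Of the 5 genes compared, 1, foxq1a, was higher by 1.5-fold or more in the cyproconazole library and 0 were as far lower. Over all 18621 genes compared on the same log2(FPKM + 1) scale, 1.58% were as far higher and 1.71% as far lower. By read ratio the counts among the 5 genes were again 1 and 0, against 2.86% and 3.13% of all genes. The next highest was tiparp, arnt2 lay near 1, and the receptors ahr2 and ahr1b were slightly lower. Counting intervals lay above 1 for foxq1a and tiparp, as for 15.8% of all genes, and below 1 for ahr1b and ahr2, as for 14.5% of all genes, so an interval off 1 is common here. In the authors' deposited table the unadjusted p-value was under 0.05 for 0 of the 7 genes, and the smallest was 0.0925 for foxq1a. It was under 0.05 for only 110 of all 23809 genes there, so 0 of 7 says nothing particular about these genes.

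**Figure D1:**
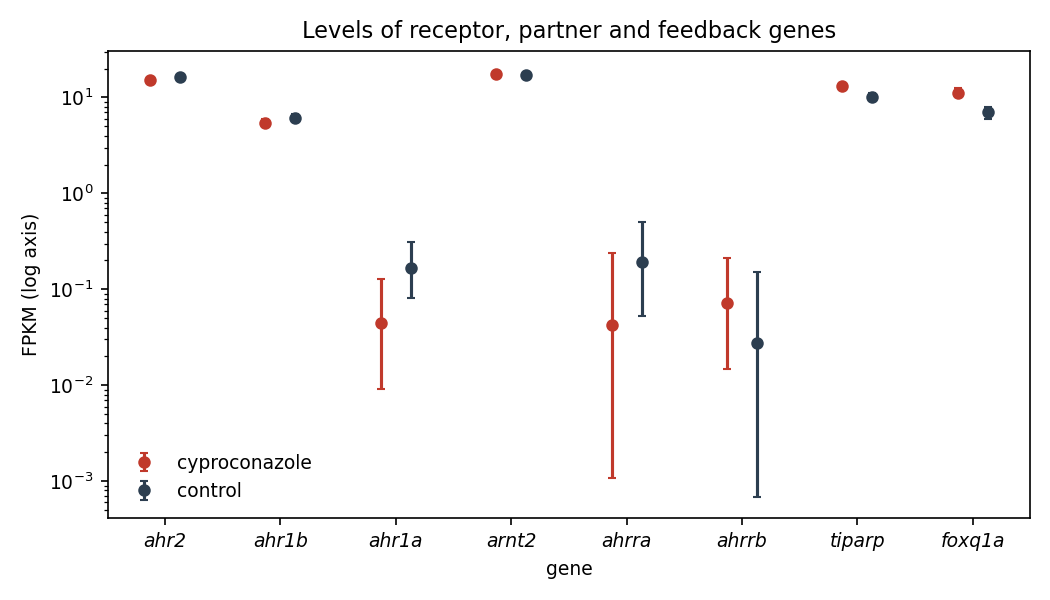
FPKM (log axis) of the 8 named genes in the cyproconazole and control libraries, 1 value per library, with 95% Poisson intervals for counting error. The 5 genes compared lie between 5.46 and 17.7 FPKM, while ahr1a, ahrra and ahrrb lie below 0.2 FPKM in both libraries.

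Among the receptors, ahr2 was the most abundant. It had 15.1 FPKM in the cyproconazole library and 16.3 FPKM in the control library (FPKM counts fragments per kilobase of transcript relative to depth, so levels can be set side by side between genes). Its 2920 reads in the cyproconazole library and 2774 in the control library gave a read ratio of 0.915 (0.868 to 0.964). The second receptor, ahr1b, had 5.46 FPKM in the cyproconazole library and 6.16 FPKM in the control library. With 563 reads in the cyproconazole library and 558 in the control library its read ratio was 0.877 (0.779 to 0.988). Both receptors were thus a little lower, each by less than 1.5-fold. The third, ahr1a, was nearly silent at this stage, with 3 reads in the cyproconazole library and 10 in the control library (0.261, 0.0461 to 1.01). That interval is wide and just includes 1, and ahr1a is under the minimum for a comparison.

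The makeup of the receptor pool was close between libraries. In summed receptor FPKM, ahr2 made up 73.3% in the cyproconazole library and 72.0% in the control library, while ahr1b made up 26.5% in the cyproconazole library and 27.2% in the control library. The reads of ahr1b relative to those of ahr2, a measure free of the scaling between libraries, differed by an odds ratio of 0.959 (0.841 to 1.09), and this counting interval includes 1. The 3 receptors summed to 20.6 FPKM in the cyproconazole library and 22.6 FPKM in the control library.

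The partner gene arnt2, which is strongly expressed in the nervous system, was the most abundant of the 8 and the closest to an equal level. It had 17.7 FPKM in the cyproconazole library and 17.1 FPKM in the control library, and its 2239 reads in the cyproconazole library and 1907 in the control library gave a ratio of 1.02 (0.960 to 1.09). Among the neural markers, the neuronal gene elavl3 was at 0.989 (0.95 to 1.03) and the synaptic gene snap25a at 1.04 (1.003 to 1.09), while the glial gene gfap was at 1.37 (1.33 to 1.41). The second partner gene, arnt, had 7.68 FPKM in the cyproconazole library and 7.21 FPKM in the control library, with a read ratio of 0.973 (0.872 to 1.08). Receptor FPKM per FPKM of both partners together was 0.811 in the cyproconazole library and 0.933 in the control library. This measure rests on FPKM, by which arnt was higher though by reads it was not, and it has no counting interval.

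The repressor genes, which encode Ahr-like proteins that compete with the receptor, were at the edge of detection. The row of ahrra held 1 read in the cyproconazole library and 4 in the control library, a ratio of 0.217 (0.00441 to 2.20). The row of ahrrb held 3 reads in the cyproconazole library and 1 in the control library, a ratio of 2.61 (0.209 to 137). These intervals are too wide for a direction. Neither gene passed 0.2 FPKM in either library.

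Of the inducible genes, tiparp encodes a mono-ADP-ribosyltransferase that modifies the receptor and limits its activity. It had 13.2 FPKM in the cyproconazole library and 10.2 FPKM in the control library. Its 821 reads in the cyproconazole library and 566 in the control library gave a ratio of 1.26 (1.13 to 1.41), higher than in 90.8% of all genes compared. The forkhead transcription factor gene foxq1a, which dioxin induces in zebrafish embryos, had 11.3 FPKM in the cyproconazole library and 6.99 FPKM in the control library. Its 351 reads in the cyproconazole library and 191 in the control library gave a ratio of 1.60 (1.34 to 1.92), at percentile 98.1 of all genes compared.

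Set against ahr2 within each library, foxq1a had 0.120 reads per ahr2 read in the cyproconazole library and 0.0689 in the control library, an odds ratio of 1.75 (1.45 to 2.11). For tiparp the same measure was 0.281 in the cyproconazole library and 0.204 in the control library, an odds ratio of 1.38 (1.22 to 1.56). Both genes thus stood higher relative to ahr2 in the cyproconazole library, beyond counting error. The read ratio of ahr2 itself was 0.915, so these odds ratios restate the read ratios above and are not separate support. How many of all genes stand as far from ahr2 was not worked out. Between the inducible genes, foxq1a relative to tiparp had an odds ratio of 1.27 (1.03 to 1.57).

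**Figure D2:**
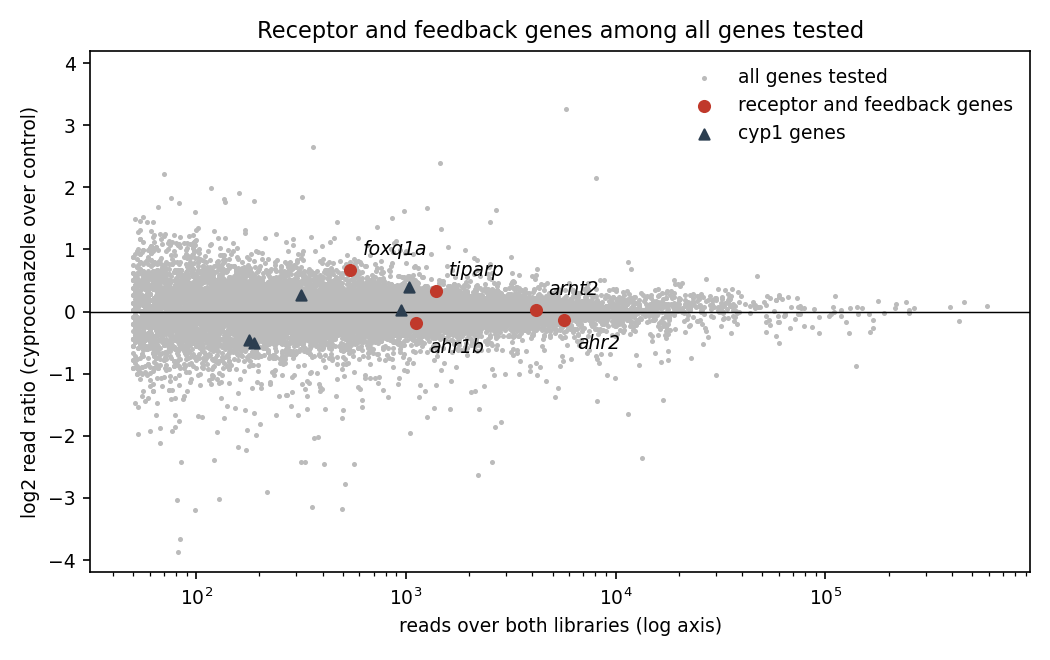
Log2 read ratio (cyproconazole over control) against reads over both libraries (log axis) for all 18621 genes compared, 1 point per gene. Red points are the 5 receptor and feedback genes compared, without ahr1a, ahrra and ahrrb, and dark triangles are the cyp1 genes. The points of ahr1b, ahr2 and arnt2 lie inside the band of most genes, tiparp at its upper part and foxq1a at its upper edge.

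The order of levels was the same for the 5 compared genes in both libraries: arnt2, ahr2, tiparp, foxq1a and ahr1b. In the control library the FPKM counting intervals of arnt2 (16.3 to 17.8) and ahr2 (15.7 to 16.9) overlapped, and so did those of foxq1a (6.03 to 8.05) and ahr1b (5.66 to 6.70). In the cyproconazole library arnt2 (17.0 to 18.5) and ahr2 (14.5 to 15.6) did not overlap, nor did foxq1a (10.1 to 12.5) and ahr1b (5.01 to 5.93). There, tiparp (12.3 to 14.1) and foxq1a overlapped instead, whereas in the control library tiparp (9.41 to 11.1) lay above foxq1a. These intervals cover counting only, not the transcript length by which FPKM is divided. Overlap in 1 library and not in the other is not itself a comparison of the libraries. Compared directly, arnt2 reads relative to ahr2 reads were higher in the cyproconazole library by an odds ratio of 1.12 (1.03 to 1.21).

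Transcript length moved with the ratios over all genes. Reads per FPKM served as a stand-in for length, and genes were divided into 5 equal bins. The median log2 read ratio was 0.06 in the shortest bin and -0.04 in the longest. The genes ahr1b, ahr2 and arnt2 fell in the longest bin, tiparp in the fourth (median -0.01) and foxq1a in the second (median 0.04). Beside these bin medians, the log2 read ratios were -0.19 for ahr1b, -0.13 for ahr2, 0.03 for arnt2, 0.33 for tiparp and 0.68 for foxq1a. In the second bin 3.89% of genes were at least 1.5-fold higher by reads, against 0.510% in the longest. The part of length in these ratios was not tested.

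Genes whose products hold or assist the receptor had read ratios between 0.812 and 1.28. Of 13 partner, chaperone, coactivator and corepressor genes compared, 0 were past 1.5-fold by reads in either direction, against 2.86% higher and 3.13% lower over all genes. The 13 include arnt2, which is also counted among the chosen genes. Counting intervals lay above 1 for 4 of them and below 1 for 2, against 15.8% and 14.5% of all genes. Their median log2 read ratio was 0.05, against 0.01 over all genes. The most abundant, the cytosolic chaperone hsp90ab1, had 1565 FPKM in the cyproconazole library and 1572 FPKM in the control library and a read ratio of 1.02 (1.01 to 1.03). Its stress-inducible relatives were at 1.06 (0.99 to 1.14) for hsp90aa1.1 and 0.860 (0.808 to 0.914) for hsp90aa1.2, and reads of these neighbouring paralogs may be shared. The receptor-binding co-chaperone gene aip was at 1.08 (1.01 to 1.16). The p23 co-chaperone genes ptges3a and ptges3b were at 0.812 (0.760 to 0.866) and 1.04 (0.969 to 1.11). Of the steroid receptor coactivator genes, ncoa3 was the highest of the 13 at 1.28 (1.2 to 1.36), while ncoa1 had 1.08 (0.961 to 1.21) and ncoa2 0.962 (0.903 to 1.03). The corepressor gene nrip1b was at 1.1 (1.01 to 1.21) and the NF-kappaB subunit gene rela at 1.06 (0.896 to 1.27).

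Targets of the receptor outside the chosen genes did not share a direction. The list mixes genes that dioxin raises with sox9b, which it lowers, and cyp1d1, which it does not induce. Its counts and median therefore cannot show a response of the targets, or the lack of one. Of 14 target genes compared, 0 were past 1.5-fold by reads in either direction, which is near the 2.86% higher and 3.13% lower over all genes, and their median log2 read ratio was 0.01, as over all genes. Counting intervals lay above 1 for 3 of the 14 targets and below 1 for 5, beside 15.8% and 14.5% of all genes. The family 1 cytochromes P450 are the most used readouts of the receptor. For cyp1a there were 84 reads in the cyproconazole library and 104 in the control library. Its ratio was 0.702 (0.520 to 0.945), at percentile 4.10 of all genes. With 81 reads against 97, cyp1b1 was at 0.726 (0.534 to 0.985), at percentile 5.03. On log2(FPKM + 1) the percentiles were 7.27 for cyp1a and 10.5 for cyp1b1. On the other side, cyp1c1 had 622 reads in the cyproconazole library and 409 in the control library and lay at percentile 93.6. The ratio of cyp1c2, a close paralog that may share reads with cyp1c1, was 1.2 (0.957 to 1.51), and that of cyp1d1, which dioxin does not induce in zebrafish, was 1.02 (0.896 to 1.16). Relative to cyp1a reads, tiparp reads were higher in the cyproconazole library by an odds ratio of 1.80 (1.31 to 2.47) and foxq1a reads by 2.27 (1.60 to 3.23), whereas tiparp relative to cyp1c1 had an odds ratio of 0.954 (0.806 to 1.13). Of the 14 targets cyp1a had the lowest ratio, and foxq1a had the highest of the chosen genes compared. That pair therefore sets the ends of the ranges against each other, and its odds ratio is not separate support.

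Detoxification targets lay between 0.758 and 1.05. The quinone reductase gene nqo1 was at 0.946 (0.871 to 1.03), the glutathione transferase gene gstp1 at 0.913 (0.882 to 0.946) and the oxidative stress regulator nfe2l2a at 0.758 (0.715 to 0.804). The glucuronosyltransferase genes ugt1ab and ugt1b1 were at 1.01 (0.929 to 1.1) and 1.0 (0.867 to 1.15), and the aldehyde dehydrogenase gene aldh3a1 at 1.05 (0.741 to 1.49). Of the remaining targets, the chondrogenic factor sox9b, which dioxin lowers in the zebrafish jaw, was at 0.814 (0.730 to 0.907) beside the lower cartilage marker matn1, and the Notch modifier lfng was at 1.15 (1.07 to 1.23). The secreted inhibitor gene wfikkn1 had 8 reads in the cyproconazole library and 1 in the control library (6.95, 0.932 to 309). The hormone gene fgf21 had 9 reads in the cyproconazole library and 0 in the control library, for which the exact counting interval of the ratio has a lower limit of 1.72. Both of these are under the minimum for a comparison.

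**Figure D3:**
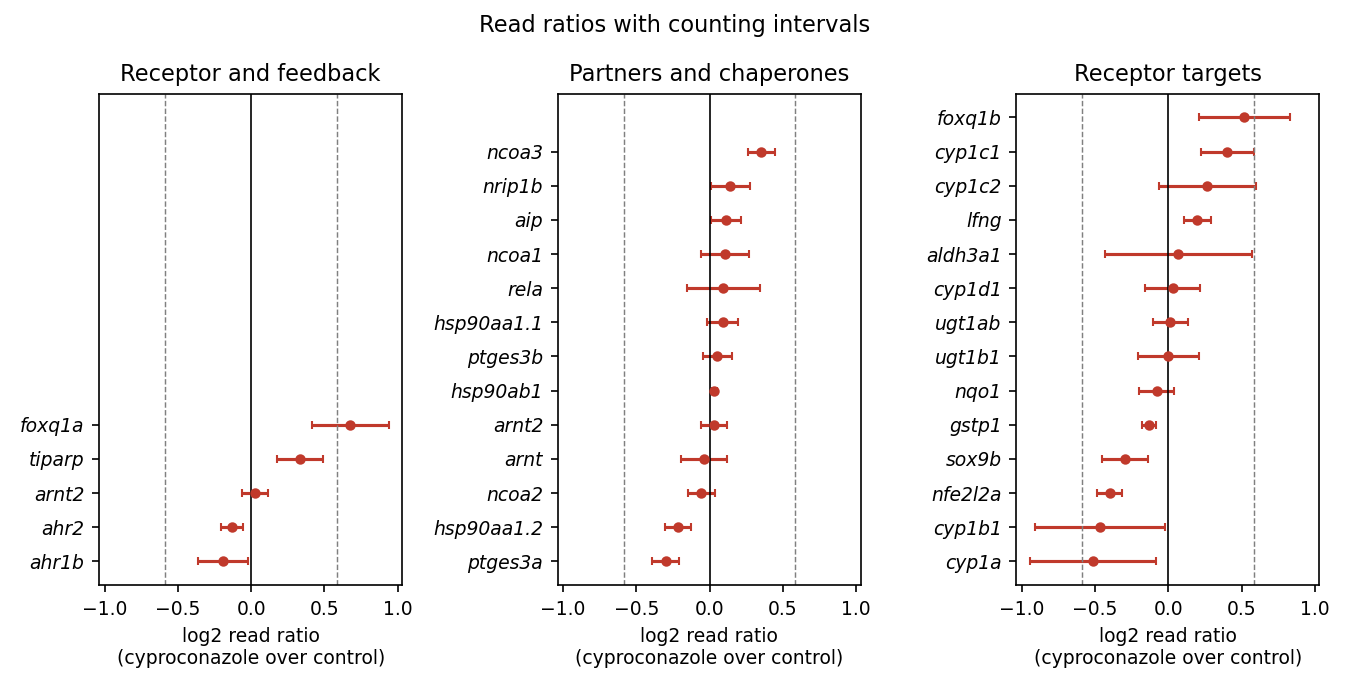
Log2 read ratios (cyproconazole over control) with 95% counting intervals for the receptor and feedback genes, the partners and chaperones and the receptor targets with at least 50 reads; dashed lines mark 1.5-fold. In these panels foxq1a alone lies past a dashed line, and foxq1b and cyp1c1 are the highest targets while cyp1a and cyp1b1 are the lowest.

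The closest relative of foxq1a, foxq1b, was also higher, with 7.08 FPKM in the cyproconazole library and 4.90 FPKM in the control library. Its 234 reads in the cyproconazole library and 142 in the control library gave a ratio of 1.43 (1.16 to 1.78), and foxq1a relative to foxq1b differed by an odds ratio of 1.12 (0.840 to 1.48). Of 33 other forkhead genes compared, foxq1b included, by read ratio 4 were past 1.5-fold higher and 1 lower, beside 2.86% and 3.13% of all genes, and their median log2 read ratio was 0.05. The higher ones were foxf1, a regulator of gut mesoderm, at 1.66 (1.40 to 1.96), foxc1a, a regulator of head mesenchyme and somites, at 1.65 (1.46 to 1.85), foxi1, a regulator of ear and ionocyte precursors, at 1.57 (0.900 to 2.82), and foxo1b, an insulin-regulated factor, at 1.5 (1.1 to 2.07), which falls short of 1.5-fold when reads are scaled by the deposited size factors. The lower one was foxe1, a thyroid and pharyngeal factor, with 11 reads in the cyproconazole library and 88 in the control library (0.109, 0.0523 to 0.204). On the log2(FPKM + 1) scale the counts were 2 and 1, beside 1.58% and 1.71% of all genes.

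In the reference gene order (assembly GRCz12tu, used for neighbours only), foxq1a lies beside foxf2a and close to foxc1a. All of these were higher in the cyproconazole library. There, foxf2a had 566 reads against 367 in the control library (1.34, 1.17 to 1.53), and foxc1a had 818 reads against 432. On the other side of foxq1a, dusp22b was at 1.02 (0.693 to 1.5) by reads, although its FPKM was 3.91 in the cyproconazole library and 2.15 in the control library, and ripk1l was at 1.07 (0.856 to 1.34). In the duplicate cluster, foxq1b lies beside foxf2b at 1.14 (0.908 to 1.44) and foxc1b at 1.08 (0.947 to 1.23), both with intervals that include 1, and near gmds at 0.770 (0.684 to 0.867). This neighbourhood was looked at after the values of the forkhead genes were seen. Neighbours with ratios away from 1 were also seen at other loci. Near tiparp, kcnab1a was at 1.91 (1.22 to 3.05), si:ch211-195m9.3 at 1.42 (1.02 to 2.01) and ssr3 at 1.07 (1.01 to 1.14). Near arnt2, cemip was at 0.668 (0.602 to 0.740) and abhd17c at 1.06 (0.957 to 1.16). The receptor genes ahr1b and ahr2 are also neighbours, and of the 3 coding genes on each side of ahr2 those compared had ratios of 0.757 (0.637 to 0.900) for s100b to 0.960 (0.721 to 1.28) for mfsd6a.

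**Figure D4:**
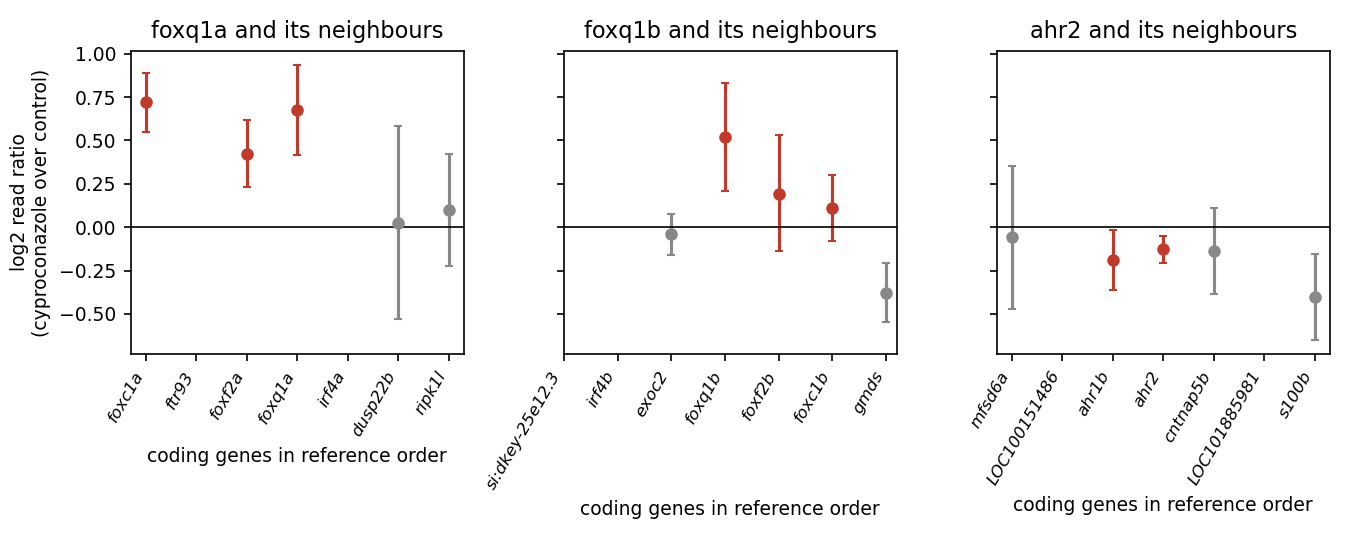
Log2 read ratios (cyproconazole over control) with 95% counting intervals for 3 coding genes on each side of foxq1a, foxq1b and ahr2 in reference order; names without a point had under 50 reads or no matching row. Red points mark forkhead and receptor genes, and the 3 forkhead genes of the foxq1a cluster lie at 1.34 to 1.65 on the linear scale.

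Other genes of the bHLH-PAS family, listed together with the Period genes, which have PAS domains but no bHLH domain, had a median log2 read ratio of -0.15 over 21 genes, against 0.01 for all genes. On log2(FPKM + 1) that median was -0.05, against 0.02 for all genes. By read ratio 0 of the 21 were past 1.5-fold higher and 2 lower, beside 2.86% and 3.13% of all genes. The lower ones were the activity-induced neuronal gene npas4a, with 130 reads in the cyproconazole library and 254 in the control library (0.445, 0.357 to 0.552), and the clock gene per1a, with 104 reads in the cyproconazole library and 161 in the control library (0.561, 0.435 to 0.723). Counting intervals lay above 1 for 3 of the 21 and below 1 for 10, beside 15.8% and 14.5% of all genes. Hypoxia-inducible factors also pair with Arnt, and their genes differed among themselves. Of these, hif1al, which had the most reads of the family, was at 0.774 (0.750 to 0.8), epas1b at 0.842 (0.766 to 0.926), hif1ab at 0.896 (0.851 to 0.944) and hif1aa at 0.898 (0.728 to 1.11). The ratio was 0.994 (0.948 to 1.04) for epas1a and 1.36 (1.08 to 1.72) for hif1al2.

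Of 11 relatives of tiparp in the ADP-ribosyltransferase family that were compared, 0 passed 1.5-fold by reads in either direction, beside 2.86% higher and 3.13% lower of all genes, the median log2 read ratio was 0.05, and the range ran from 0.717 (0.576 to 0.891) for parp6a to 1.35 (1.19 to 1.54) for parp4. Those with most reads, parp8 and parp6b, were at 1.05 (0.942 to 1.17) and 0.953 (0.85 to 1.07). Genes of the kynurenine route, which breaks down tryptophan and makes compounds that can bind the receptor in mammals, had a median log2 read ratio of -0.20 over 6 genes, with 0 genes past 1.5-fold higher and 1 lower, beside 2.86% and 3.13% of all genes. That gene was tdo2a, a liver tryptophan dioxygenase gene that opens the route. It had 73 reads in the cyproconazole library and 123 in the control library (0.516, 0.381 to 0.695). Under the read minimum, its paralog tdo2b had 14 reads in the cyproconazole library against 6 (2.03, 0.732 to 6.44). Also under it, ido1 had 10 against 26 (0.334, 0.144 to 0.717). The liver markers fabp10a and tfa were at 0.702 (0.575 to 0.856) and 0.799 (0.785 to 0.813), and their part in the ratio of tdo2a was not tested. The other 5 genes of the route that were compared lay between 0.813 for afmid and 0.996 for kynu.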

How the data were processed

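Poly-A RNA of 2 pools of whole embryos was sequenced, 1 library per group. The submitters' processing notes name the build GRCz10 and, without roles, the tools Cufflinks 2.1.1, HTSeq 0.6.1, Picard 1.29, SAMtools and TopHat2 2.0.4. The annotation used, whether counting used strand, and how multiply matching reads were treated: not given in the sources used here. Reads of paralogs and of overlapping genes could not be told apart. The authors deposited FPKM per library, a size-factor-scaled mean count (a signal over both libraries), and a log2 ratio with its standard error, Wald score and p-value, per the file headers. These deposited log2 ratios lie between -0.38 and 0.37 and were not used as effect sizes.

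The design planned FPKM comparison with reads beside it. Mean counts were whole multiples of 1 step within 0.01 of a step for all 23809 genes. For 7180 genes only 1 pair of whole reads fitted the mean count, and it was kept without a further check. For the others, a negative binomial model with a normal prior was evaluated at the deposited ratio. There the pair that gave the deposited standard error within 1e-05 was kept. Together this resolved 23790 genes (99.9%). Scaling of reads used the trimmed mean of M values (TMM; 30% and 5% trimmed). SciPy 1.17.1, pandas 2.3.3 and NumPy 2.4.6 were run under Python 3.11.15. Genes needed at least 50 reads and an FPKM above 0 in both libraries, which left 18621. For 12 genes with enough reads an FPKM is listed at 0. Of the gene IDs, 21800 matched a symbol in the reference table. Comparisons used log2(FPKM + 1), which understates changes of low genes, with a 1.5-fold rule and no test. Odds ratios have exact conditional 95% intervals.

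The genes and the 7 lists were chosen with earlier results of these data known. The text names the 8 genes, every partner and target compared, and from each other list those past 1.5-fold by reads or, where there were none, the 2 with most reads. The forkhead neighbours, hypoxia factors and ends of ranges were named after their values were seen. With 2 libraries a pattern is 1 ratio, so no gene is named for likeness. Alternatives were other added values, scalings, read minimums and thresholds.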

Additional observations from a re-analysis of the deposited data

How the results depend on the processing

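No paired analysis was possible because there is only 1 library in each group, which also means that none could be left out. The log2 differences of ahr1b, ahr2, arnt2, tiparp and foxq1a each moved by less than their counting error with 0.1 added to FPKM, by recovered reads under 3 scalings and with FPKM centred on the median gene. In all of these foxq1a stayed past 1.5-fold, with log2 differences of 0.60 to 0.68. The 3 scalings differ from each other by a constant shared by all genes (foxq1a 0.673 to 0.680). Centring likewise subtracts 0.02 from every gene. Shifts this small could hardly exceed the counting error of a gene, so they are a weak check. A read minimum decides only which genes are kept, so it could not change the log2 differences. At 2-fold, 0 of the 5 genes were higher, and by counting intervals off 1, 2 were higher and 2 lower. Over all genes, 295 higher and 318 lower became 596 and 620 with 0.1 added, 533 and 582 by TMM-scaled reads, 537 and 573 with total reads, 524 and 588 with the deposited size factors, 50 and 83 at 2-fold, and 2933 and 2698 by intervals off 1. Those counts are of 18621 genes. Without a read minimum 475 of 23790 genes were higher and 465 lower, and with at least 200 reads 172 of 14749 were higher and 214 lower. In the bHLH-PAS family 1 lower gene became 3 with 0.1 added and 2 under each read scaling, and its median was -0.15, -0.15 and -0.16 by reads with TMM, total reads and size factors. Among forkhead genes the 2 higher became 4 by reads scaled with TMM or total reads and 3 with the deposited size factors, where foxo1b falls short, and the 1 lower became 0 with at least 200 reads, which leaves foxe1 out by construction. The 1 lower kynurenine gene likewise became 0 there. Among receptor targets 0 higher became 1 without a minimum, which admits fgf21. Low depth limits ahr1a, ahrra and ahrrb most.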
